A study of Mus musculus with 17 samples.

Results

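Cyclic nucleotide phosphodiesterases are the enzymes that break down the second messengers cAMP and cGMP. The 10 genes described here (Pde1c, Pde3a, Pde3b, Pde4b, Pde4d, Pde5a, Pde7b, Pde8a, Pde8b and Pde10a) were taken by gene symbol from 55357 genes quantified in mouse β cells, with the estimated counts of all transcripts of a gene added together. The selection rule uses symbols and no measured value, but the genes were chosen with earlier results of these data known. All 10 passed the filter on low counts, and 97 transcripts belonged to them.

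In β cells, glucagon-like peptide 1 and related hormones raise cAMP, which acts through protein kinase A and Epac to increase insulin secretion at stimulatory glucose, and phosphodiesterases end that signal. The families differ in substrate and in what controls them. Pde4, Pde7 and Pde8 enzymes hydrolyze cAMP, Pde5 enzymes hydrolyze cGMP, and Pde1, Pde2, Pde3, Pde10 and Pde11 enzymes act on both. Pde3b is a long-studied regulator of cAMP in β cells.

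The libraries came from purified β cells of male mice on a C57BL/6 background whose Rosa26 tdTomato reporter was switched on by RIP-Cre, a Cre transgene under the rat insulin promoter. By the study's methods control mice (labelled WT) carried the reporter and the Cre, while Pcbp2βKO mice carried in addition Pcbp2 fl/fl alleles to delete the gene of the RNA-binding protein PCBP2 from β cells. Isolated islets first recovered in medium with glucose between the levels compared here, as the study's methods state. Islets of both genotypes were then kept for 72 hours in 2.8 mM (low) or 16.7 mM (high) glucose, dispersed and sorted for tdTomato fluorescence and exclusion of DAPI. A difference with glucose is therefore one between low and high, and neither was compared with the recovery medium. There were 3 control and 5 Pcbp2βKO libraries at low glucose, and 4 control and 5 Pcbp2βKO libraries at high glucose. Age was not given. The labels do not say whether replicates were separate animals, so p-values measure the spread between these samples, which may be technical. The design asks what high glucose does to each gene in control and in Pcbp2βKO cells, and what loss of Pcbp2 does at each glucose level. The comparisons share samples (control cells at high glucose enter both the glucose comparison in control cells and the genotype comparison at high glucose), so they are not independent of each other.

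Pcbp2 itself measured 35.01 to 45.4 CPM (counts relative to the library's total, with the total scaled by the TMM method) in the 4 control libraries at high glucose and 5.81 to 10.03 CPM in the 5 Pcbp2βKO libraries, and 50.7 to 73.4 against 15.5 to 19.2 CPM at low glucose. The log2 fold change was −2.40 (SE 0.16, edgeR adjusted p = 7.55e-08) at high and −1.84 (SE 0.17, adjusted p = 3.61e-06) at low glucose, and every library matched its genotype label. Totals ran from 47385513 to 82419400 estimated counts. On the first principal component of all tested genes, which separated low from high glucose, control replicate 4 and Pcbp2βKO replicates 4 and 5 at high glucose scored 9.87, 21.4 and 33.2, against 90.9 or more in the other 6 high-glucose libraries and −42.4 or less at low glucose, and calls that changed without these 3 libraries are given with their values. The summed β cell markers (10 genes, led by the insulin genes) differed by group. At low glucose they were 118525 to 122718 CPM in control and 67234 to 97418 CPM in Pcbp2βKO libraries, without overlap. At high glucose they were 270661 to 523194 and 358027 to 473108 CPM. Markers of acinar cells summed to 0.327 CPM or less, of endothelial cells to 1.71 CPM or less, and of stellate, pericyte or smooth muscle cells to 1.87 CPM or less. Markers of ductal cells summed to 384 to 1183 CPM. Those of δ cells summed to 147 to 1316 CPM, and the PP cell marker measured 224 to 5112 CPM. Both were highest in Pcbp2βKO libraries at low glucose. Macrophage markers summed to 21.4 to 189 CPM. With glucose in Pcbp2βKO cells 6 of 7 of them were called lower and the other, C1qa, was called higher. C1qa was also called lower with loss of Pcbp2 at low glucose. Markers of α cells summed to 691 to 2623 CPM in control and 1570 to 9438 CPM in Pcbp2βKO libraries at low glucose, and to 538 to 1572 and 953 to 1812 CPM at high glucose. The part of these cells in the values below was not tested. In such bulk samples, fewer cells of a type and less RNA per cell cannot be told apart.

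Pde4b, which encodes a cAMP-specific enzyme, was the most abundant member per length in 15 of 17 libraries. In TPM, the transcript level per length relative to the library's sum, its mean was 11.99 ± 3.26 (SD, n = 3) in control cells at low glucose, 9.42 ± 3.13 (n = 4) at high glucose, and 15.2 ± 6.03 (n = 5) and 12.5 ± 1.69 (n = 5) in Pcbp2βKO cells. In the other 2 libraries, control replicates 2 and 3 at high glucose, Pde10a stood first. Pde3a, a cGMP-inhibited enzyme best known from heart muscle and platelets, had the lowest TPM of the members in 12 libraries, including all 7 control libraries. In the other 5, all of them Pcbp2βKO, Pde7b or Pde8b stood last.

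The order of levels in control cells at low glucose was Pde4b, Pde3b (4.27 TPM), Pde7b (3.26), Pde8a (2.56), Pde5a (2.45), Pde10a (2.33), Pde1c (1.45), Pde8b (1.29), Pde4d (0.763) and Pde3a (0.102). Libraries of neighbours in this order overlapped from Pde3b down to Pde8b, so only Pde4b at the top and Pde4d and Pde3a at the bottom were set apart from the gene next to them. At high glucose, Pde10a (7.61 TPM) took the place after Pde4b, with overlapping libraries, and it was separate from Pde5a (3.26) below it. In Pcbp2βKO cells at low glucose the lowest ranks were Pde3a (0.514), Pde8b (0.450) and Pde7b (0.397), which overlapped. At high glucose they were Pde7b (0.568), Pde8b (0.534) and Pde3a (0.290), which overlapped as well.

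**Figure D1:**
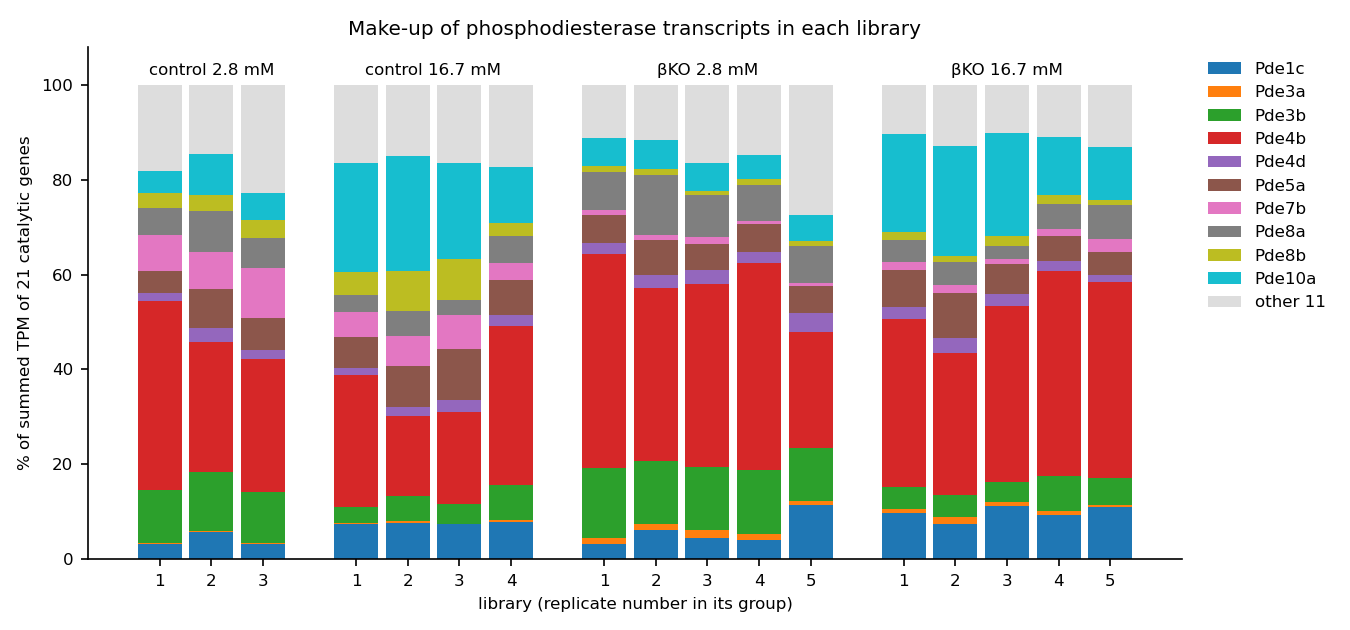
Each bar is 1 library, grouped by genotype and glucose in mM; the vertical axis gives the percent of the summed TPM of the 21 catalytic phosphodiesterase genes taken by each of the 10 genes, with the other 11 together in grey. Pde4b took the widest band in 15 of 17 libraries, the Pde10a band widened from 6.35% to 19.9% of the sum with glucose in control cells, and the Pde7b and Pde8b bands were narrower in Pcbp2βKO (βKO) cells.

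Together the 10 genes held 81.5% ± 4.12 (SD, n = 3), 83.7% ± 0.963 (n = 4), 83.7% ± 6.64 (n = 5) and 88.5% ± 1.43 (n = 5) of the summed TPM of all 21 catalytic phosphodiesterase genes in control cells at low and high glucose and in Pcbp2βKO cells at low and high glucose. The stacked plot of these shares by library shows which genes filled the sum. In CPM the 21 genes summed to 136 ± 14.2 at low and 243 ± 24.1 at high glucose in control cells. In Pcbp2βKO cells they summed to 135 ± 26.1 and 232 ± 25.1 CPM. The CPM ranges of low and high glucose did not overlap in either genotype, so the change with glucose depended on the scale. The summed TPM was 37.5 ± 4.68 at low and 38.8 ± 3.82 at high glucose in control cells, and 39.0 ± 9.88 and 33.6 ± 2.74 in Pcbp2βKO cells. The cAMP-specific families (8 genes) held 58.3% to 68.9% of it in control cells at low glucose and 46.0% to 54.7% at high glucose, ranges that did not overlap, while the dual-specificity families (8 genes) held 25.3% to 32.9% and 37.6% to 44.9%. In Pcbp2βKO cells the cAMP-specific share was 58.3% to 66.8% at low and 50.01% to 63.0% at high glucose, which overlapped, and the dual share 26.5% to 34.1% and 31.7% to 41.1%. No test was run on these sums.

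High glucose raised 5 of the 10 genes in control cells and lowered none. Pde10a, a dual-specificity enzyme best known from striatal neurons, went from a mean of 8.28 to 47.3 CPM, and Pde1c, a calcium- and calmodulin-activated enzyme, from 6.72 to 23.8 CPM. The other 3 were Pde8b, Pde5a and Pde4d. Calls required more than a 1.5-fold difference together with a Benjamini-Hochberg adjusted p below 0.05 in edgeR (quasi-likelihood), with 22784 genes in the test. Of all tested genes 13.8% were called in this comparison, 7.15% as higher and 6.69% as lower, and the members' median log2 fold change was 0.66 against 0.04 over all genes. In Pcbp2βKO cells 6 of the 10 genes rose and 1 fell, where 23.8% of all genes were called, 13.4% as higher and 10.4% as lower. The groups did not overlap for 4 of the 10 genes in control cells, against 24.1% of all genes, and for 6 in Pcbp2βKO cells, against 21.6%. The count depended on the scaling, since on log2(TPM + 1) 3 genes were called in either genotype, 2 higher and 1 lower in control cells and 1 higher and 2 lower in Pcbp2βKO cells, and there the median of all genes was −0.24 in control and −0.33 in Pcbp2βKO cells.

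**Figure D2:**
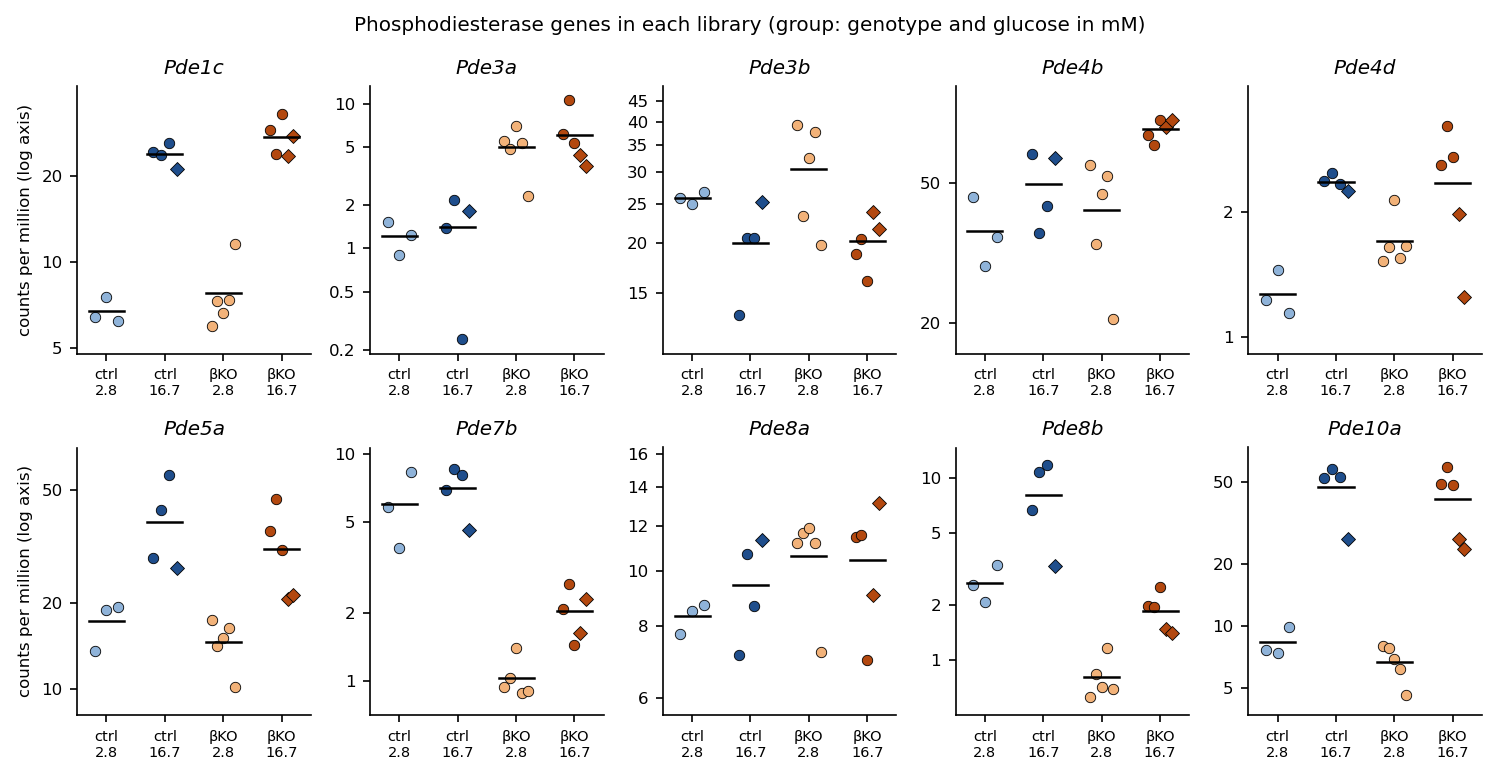
CPM of each gene on a log axis, by group (ctrl: control; βKO: Pcbp2βKO; glucose in mM); each point is 1 library, lines mark group means, and diamonds mark the 3 high-glucose libraries that scored apart on the first principal component. Pde1c and Pde10a separated by glucose in both genotypes, Pde7b separated by genotype at both glucose levels, and the diamonds hold the lowest Pde10a values at high glucose.

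Pde1c measured 6.41, 7.55 and 6.19 CPM in control cells at low glucose and 24.2, 23.6, 26.1 and 21.1 CPM at high glucose. In Pcbp2βKO cells it measured 5.98, 7.29, 6.62, 7.37 and 11.5 CPM at low and 29.0, 23.9, 32.9, 23.5 and 27.6 CPM at high glucose. The groups did not overlap in either genotype, and the 3 libraries that scored apart were not set off for this gene. The log2 fold change was 1.82 in control cells (SE 0.21, edgeR adjusted p = 0.000125) and 1.82 in Pcbp2βKO cells (SE 0.17, adjusted p = 2.51e-06), a rise of 3.54- and 3.53-fold. On log2(TPM + 1) the rise in Pcbp2βKO cells was 0.49, under the fold threshold. Pde1c lies at chr6:56046784-56629472 on the minus strand of GRCm39.

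Pde3b, cGMP-inhibited and activated by insulin signalling in fat cells, was the only member called lower with glucose, and only in Pcbp2βKO cells. Its libraries measured 25.8, 24.9 and 26.7 CPM at low and 13.2, 20.6, 20.5 and 25.3 CPM at high glucose in control cells, and 39.3, 23.3, 32.5, 37.8 and 19.7 against 18.8, 20.4, 16.0, 23.8 and 21.6 CPM in Pcbp2βKO cells. Both pairs of groups overlapped. The log2 fold change was −0.37 (SE 0.23, edgeR adjusted p = 0.304) in control cells and −0.60 (SE 0.19, adjusted p = 0.0242) in Pcbp2βKO cells, just past the fold threshold, and leaving out any of 5 of the 10 Pcbp2βKO libraries ended the call (replicates 1, 3 and 4 at low and 1 and 3 at high glucose, adjusted p = 0.0482 to 0.0744, with the fold under the threshold). A difference between the genotypes was not detected (interaction −0.23, 95% interval −0.86 to 0.41). On log2(TPM + 1) the fall was called in both genotypes, at −0.84 and −1.12, beside a median of all genes of −0.24 and −0.33.

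Pde4b measured 45.7, 29.1 and 35.04 CPM at low and 60.3, 36.2, 42.9 and 58.7 CPM at high glucose in control cells, overlapping ranges with no call (log2 0.44, adjusted p = 0.3001). In Pcbp2βKO cells it measured 56.1, 33.5, 46.6, 52.1 and 20.6 CPM at low and 68.3, 63.9, 75.2, 71.8 and 75.0 CPM at high glucose, which did not overlap. It rose 1.70-fold there (log2 0.76, SE 0.22, edgeR adjusted p = 0.0131). That call depended on the scaling, because on log2(TPM + 1) the value was −0.16, and without the 3 libraries that scored apart the adjusted p was 0.0583.

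Among the cAMP-specific enzymes, Pde8b measured 2.59, 2.08 and 3.31 CPM at low and 6.65, 10.7, 11.8 and 3.29 CPM at high glucose in control cells. Replicate 4 at high glucose, 1 of the 3 libraries that scored apart, lay within the low-glucose range. The 3.04-fold rise was called all the same (log2 1.61, SE 0.37, edgeR adjusted p = 0.00819) and was lost without control replicate 2 at low glucose (adjusted p = 0.0565) and on both TPM scales (0.50 and 0.72, adjusted p = 0.0640 and 0.117 on log2(TPM + 1) and log2(TPM + 0.1)). Pde4d, a second Pde4 gene with many transcripts, measured 1.23, 1.44 and 1.14 CPM at low and 2.37, 2.48, 2.34 and 2.24 CPM at high glucose, from 104 to 153 estimated counts a library. Its 1.86-fold rise (log2 0.89, SE 0.28, edgeR adjusted p = 0.0397) was lost when any of 6 of the 7 control libraries was left out (adjusted p = 0.0679 to 0.124; replicate 4 at high glucose was the exception). On log2(TPM + 1) it was 0.04. In Pcbp2βKO cells Pde4d measured 1.52, 1.64, 2.13, 1.54 and 1.65 CPM at low and 2.58, 3.21, 2.71, 1.97 and 1.246 CPM at high glucose. These groups overlapped through replicate 5 at high glucose, and the difference was not called (log2 0.46, SE 0.23, adjusted p = 0.143), but was without the 3 libraries that scored apart (0.70, adjusted p = 0.0155), and it turned to −0.21 on log2(TPM + 1).

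Pde8a, a high-affinity cAMP enzyme, and Pde3a were called in neither genotype for glucose. Pde8a ranged from 7.74 to 8.71 CPM and from 7.12 to 11.3 CPM in control cells at low and high glucose, and from 7.22 to 11.9 and 6.99 to 13.2 CPM in Pcbp2βKO cells. Its log2 fold change was 0.18 in control cells (95% interval −0.30 to 0.66) and −0.03 in Pcbp2βKO cells (−0.42 to 0.37), and on log2(TPM + 1) it was −0.39 and −0.73, the latter called (adjusted p = 0.00349). For Pde3a the log2 fold change was 0.20 in control cells (95% interval −0.90 to 1.29) and 0.27 in Pcbp2βKO cells (−0.61 to 1.15). These values turned to −0.18 and −0.23 when scaled by total counts, where the median of all genes was −0.35 and −0.47.

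Pde5a encodes the cGMP-specific enzyme blocked by sildenafil. Its libraries measured 13.6, 19.0 and 19.4 CPM at low and 28.7, 42.3, 56.2 and 26.5 CPM at high glucose in control cells, and 17.4, 14.2, 15.1, 16.4 and 10.1 against 35.8, 46.2, 30.7, 20.7 and 21.3 CPM in Pcbp2βKO cells. Groups did not overlap in either genotype. It rose 2.21-fold in control cells (log2 1.15, SE 0.30, edgeR adjusted p = 0.0141) and 2.11-fold in Pcbp2βKO cells (log2 1.08, SE 0.24, adjusted p = 0.00247), although on the log2(TPM + 1) scale, where the median of all genes was −0.33, its value in Pcbp2βKO cells was −0.04. The control call was lost without control replicate 1 or 2 at low glucose or replicate 3 at high glucose (adjusted p = 0.0514 to 0.0770), and on log2(TPM + 1) it was 0.29 (adjusted p = 0.332).

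Pde10a measured 7.60, 7.33 and 9.89 CPM in control cells at low glucose and 52.2, 57.9, 52.6 and 26.4 CPM at high glucose. Pcbp2βKO cells gave 7.96, 7.75, 6.88, 6.12 and 4.59 CPM at low and 48.9, 58.7, 48.1, 26.4 and 23.6 CPM at high glucose. No low-glucose library reached any high-glucose library, and the 3 lowest high-glucose values were those of the 3 libraries that scored apart on the first principal component. The rise was 5.71-fold in control cells (log2 2.51, SE 0.33, edgeR adjusted p = 0.000345) and 6.17-fold in Pcbp2βKO cells (log2 2.63, SE 0.27, adjusted p = 4.42e-06). The call held for Pde10a in both genotypes under all 9 other ways of processing and with each library left out. Pde10a lies at chr17:8744204-9205482 on the plus strand.

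Pde7b, at chr10:20273567-20600886 on the minus strand of GRCm39, fell with loss of Pcbp2 at both glucose levels. It encodes a cAMP-specific enzyme. In the single promoter window searched per gene, only Pde7b among the 10 had a complete cAMP response element. This element is the palindrome TGACGTCA, to which CREB-family factors bind. In windows of 300 bases (250 before and 50 from the start site) of the most abundant protein-coding transcript of each tested gene, on GRCm39, 424 of 15581 promoters (2.72%) held these letters. The element in Pde7b began at position −44 from the start of transcript Pde7b-201. The 5-base core TGACG, on either strand, was in 26.1% of all promoters and in 6 of the 10 here (Pde3b, Pde4b, Pde4d, Pde7b, Pde8a and Pde10a); the matches in Pde7b lie inside the full element. The E-box CACGTG was in 8.93% of all promoters and in none of the 10 windows. Starts of the genes' other transcripts were not searched, and for some genes, such as Pde8b (start at chr13:95170761), the start used lay inside the gene. A match describes letters only, and binding was not measured. The stretches are shown for Pde7b, the gene with the full element, and for comparison for the core in Pde10a and Pde4b, the most glucose-raised and the most abundant member. They lie at chr10:20600913-20600940 (minus strand), chr17:8743957-8743984 (plus strand) and chr4:102446702-102446729 (plus strand), are written 5′ to 3′ on the strand of the gene, and carry the motif in capitals (in Pde10a and Pde4b the core stands on the opposite strand and reads CGTCA).
Pde7b: ctaaacccttTGACGTCActctcgaaat
Pde10a: cgaggctgcagaCGTCAtcgcctcctgt
Pde4b: agcaaagctcggCGTCAattaatcaaat

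At high glucose Pde7b measured 6.97, 8.55, 8.08 and 4.60 CPM in control and 2.07, 2.68, 1.45, 1.62 and 2.30 CPM in Pcbp2βKO cells. At low glucose it measured 5.84, 3.84 and 8.37 CPM in control and 0.938, 1.03, 1.40, 0.885 and 0.899 CPM in Pcbp2βKO cells. Neither pair of groups overlapped. Pde7b was 3.48-fold lower in Pcbp2βKO cells at high glucose (log2 −1.80, SE 0.26, edgeR adjusted p = 0.000641) and 5.83-fold lower at low glucose (log2 −2.54, SE 0.28, adjusted p = 3.34e-05), calls that held under all 9 other ways of processing and with each library left out.

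Glucose did not raise Pde7b detectably in control cells (log2 0.23, 95% interval −0.40 to 0.85). There Pde7b turned to −0.43 on log2(TPM + 1), −0.58 on log2(TPM + 0.1) and −0.19 when scaled by total counts alone, beside medians of all genes of −0.24, −0.56 and −0.35. In Pcbp2βKO cells it rose 1.96-fold (log2 0.97, SE 0.25, edgeR adjusted p = 0.00699), without overlap between the groups, and that call was lost on both TPM scales and with total counts. The difference of the 2 glucose effects was 0.74 (95% interval −0.07 to 1.56, unadjusted p = 0.0710), so a difference was not shown.

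Pde8b, like Pde8a a high-affinity cAMP enzyme, lies at chr13:95160559-95386844 on the minus strand and was also lower in Pcbp2βKO cells at both glucose levels. At high glucose the Pcbp2βKO libraries measured 1.98, 1.96, 2.53, 1.49 and 1.41 CPM, and at low glucose 0.625, 0.845, 0.7103, 1.16 and 0.699 CPM, all below every control library at the same glucose level. The difference was 4.32-fold at high glucose (log2 −2.11, SE 0.32, edgeR adjusted p = 0.000863) and 3.30-fold at low glucose (log2 −1.72, SE 0.34, adjusted p = 0.00826), where leaving out control replicate 3 ended the call (adjusted p = 0.0635), as did log2(TPM + 1) (−0.65, adjusted p = 0.113) and log2(TPM + 0.1) (−1.35, adjusted p = 0.0609). Within Pcbp2βKO cells Pde8b still rose 2.32-fold with glucose (log2 1.22, SE 0.31, adjusted p = 0.00565), without overlap, a call lost with total counts (0.72, adjusted p = 0.0570) and on both TPM scales (0.081 and 0.21, adjusted p = 0.695 and 0.554). The interaction was −0.39 (95% interval −1.38 to 0.60), which does not show a different response to glucose in the 2 genotypes.

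Pde3a, at chr6:141194888-141453174 on the plus strand, moved the other way. At high glucose it measured 1.39, 2.17, 0.235 and 1.80 CPM in control and 6.21, 10.6, 5.33, 4.42 and 3.71 CPM in Pcbp2βKO cells. At low glucose it measured 1.53, 0.902 and 1.24 CPM in control and 5.54, 4.88, 7.02, 5.31 and 2.29 CPM in Pcbp2βKO cells. Every Pcbp2βKO library was above every control library. At high glucose the 4.31-fold difference was called (log2 2.11, SE 0.48, edgeR adjusted p = 0.0259), and left out in turn control replicate 1 and Pcbp2βKO replicates 1 and 2 each ended the call (adjusted p = 0.0518 to 0.0716). The call was also lost under 4 of the 9 other ways of processing, on both TPM scales (log2(TPM + 0.1) 1.07, adjusted p = 0.167), with length-scaled counts (1.82, adjusted p = 0.108) and with only the groups compared (2.10, adjusted p = 0.111). At low glucose the 4.09-fold difference missed the threshold (log2 2.03, SE 0.53, adjusted p = 0.0541) and was called under 7 of the 9 other ways of processing, among them without the 3 libraries that scored apart (adjusted p = 0.0457). These were low levels, 13.9 to 132 estimated counts a control library and at most 0.849 TPM in any library, and on log2(TPM + 1) the difference at high glucose was 0.25 and not called (adjusted p = 0.422). None of the 5 α cell markers, whose sums are given above, was called in either genotype comparison, but their median log2 fold change was in the direction of Pde3a, at 0.778 at high and 1.40 at low glucose. The PP cell marker (0.782 and 1.55) and the median of 3 δ cell markers (0.511 and 1.05) were higher as well, with none called. The median of 10 β cell markers was 0.156 at high and −0.274 at low glucose, with 1 called lower at low glucose. The part of α, PP and δ cells in the result was not tested.

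**Figure D3:**
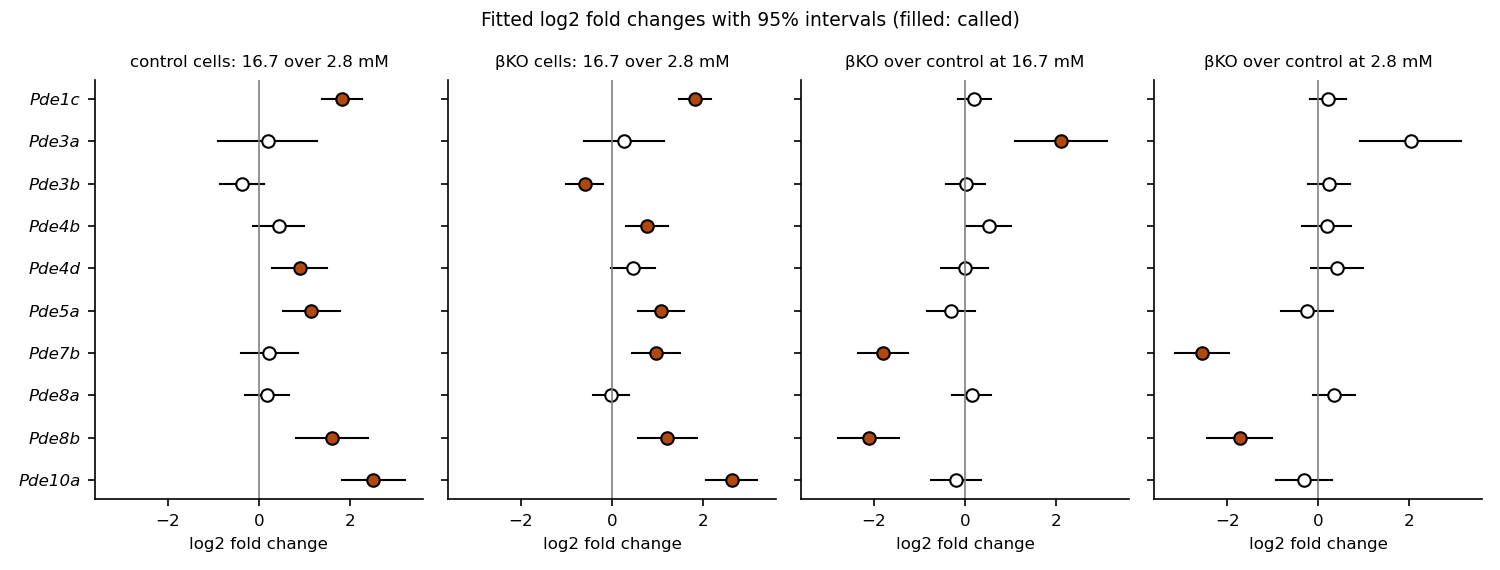
Fitted log2 fold changes of the 10 genes in the 4 comparisons, with 95% intervals from edgeR's quasi-likelihood fit; filled points were called. Pde1c, Pde5a, Pde8b and Pde10a were called higher with glucose in both genotypes (on log2(TPM + 1) Pde5a was at −0.04 in Pcbp2βKO cells), while loss of Pcbp2 moved Pde7b and Pde8b left and Pde3a right of 0 at both glucose levels (Pde3a was not called at 2.8 mM).

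In all, loss of Pcbp2 lowered 2 and raised 1 of the 10 genes at high glucose, where 1.71% of all genes were called, 1.42% as lower and 0.29% as higher. At low glucose it lowered 2 and raised none, where 2.04% of all genes were called, 1.78% as lower and 0.255% as higher. The groups did not overlap for 4 of 10 genes at either level (the 3 named and Pde4b at high, Pde4d at low glucose), against 4.49% of all genes at high and 11% at low glucose. Pde4b at high glucose was 1.43-fold higher in Pcbp2βKO cells (log2 0.52, SE 0.23) and did not pass the correction (edgeR adjusted p = 0.380, unadjusted p = 0.0402). Pde4d at low glucose differed by 0.42 on the log2 scale (SE 0.27, adjusted p = 0.569). The other 5 genes differed between the genotypes by −0.31 to 0.35 on the log2 scale over both glucose levels. The plot of fold changes shows their intervals, which all include 0.

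No member passed the test of the interaction of genotype and glucose, and none had an unadjusted p under 0.05. Across all genes 1 was called by edgeR's quasi-likelihood test (0.00439%; it was Ins1, named after its values were seen), 1042 had an unadjusted p under 0.05, and DESeq2 called 32.

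At the level of transcripts, 50 of the 97 passed the filter, and 8 were called higher with glucose in control cells, where 4.69% of 65421 tested transcripts were called, 2.22% as higher and 2.47% as lower. For Pde1c these were Pde1c-201 (log2 1.89, SE 0.32) and Pde1c-205 (1.86, SE 0.21) with the scarcer Pde1c-202 and Pde1c-204. For Pde10a they were Pde10a-204 (log2 3.37, SE 0.40, edgeR adjusted p = 0.00102) and Pde10a-207 (3.46, SE 0.58). Pde8b-213 (1.52, SE 0.35) and Pde8b-209 (6.32, SE 1.63) were the others, the last from estimated counts of 0 to 4 a library at low glucose. Leaving out single control libraries ended the call of Pde1c-204 in 6 of 7 cases, of Pde8b-213 in 4 and of Pde1c-202 in 2. Pde8b-209 had a value in only 4 of these cases and lost its call in 2 (adjusted p = 0.138 to 0.165).

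Pde10a-204 lies at chr17:8744204-9205480 and Pde10a-202 at chr17:9020525-9205480 (GRCm39, plus strand), so that the former has the upstream start. The share of Pde10a-204 in the TPM of its gene was 22.1% to 30.3% at low and 40.6% to 49.5% at high glucose in control cells, and 24.4% to 36.4% and 35.7% to 54.5% in Pcbp2βKO cells. The control ranges did not overlap and the Pcbp2βKO ranges did. The difference of the means was 18.1 percentage points in control cells (two-sided exact permutation p = 0.0286, the smallest this design allows, 0.305 after adjustment over 32 shares) and 14.4 points in Pcbp2βKO cells (exact permutation p = 0.0159, adjusted 0.0847). Pde10a-202 went the other way, from 23.3% to 13.6% in control cells, with overlapping ranges.

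None of the 32 shares passed the adjustment in any comparison. In Pcbp2βKO cells the smallest p of 0.00794 was reached by 3 shares between low and high glucose (exact permutation tests, each 0.0847 after adjustment), namely Pde4b-202 (34.8% to 46.5%), Pde4b-203 (21.6% to 14.9%) and Pde4d-212, annotated as a retained intron (32.3% to 60.0%). Pde4d-212 rested on at most 87.4 estimated counts a library.

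**Figure D4:**
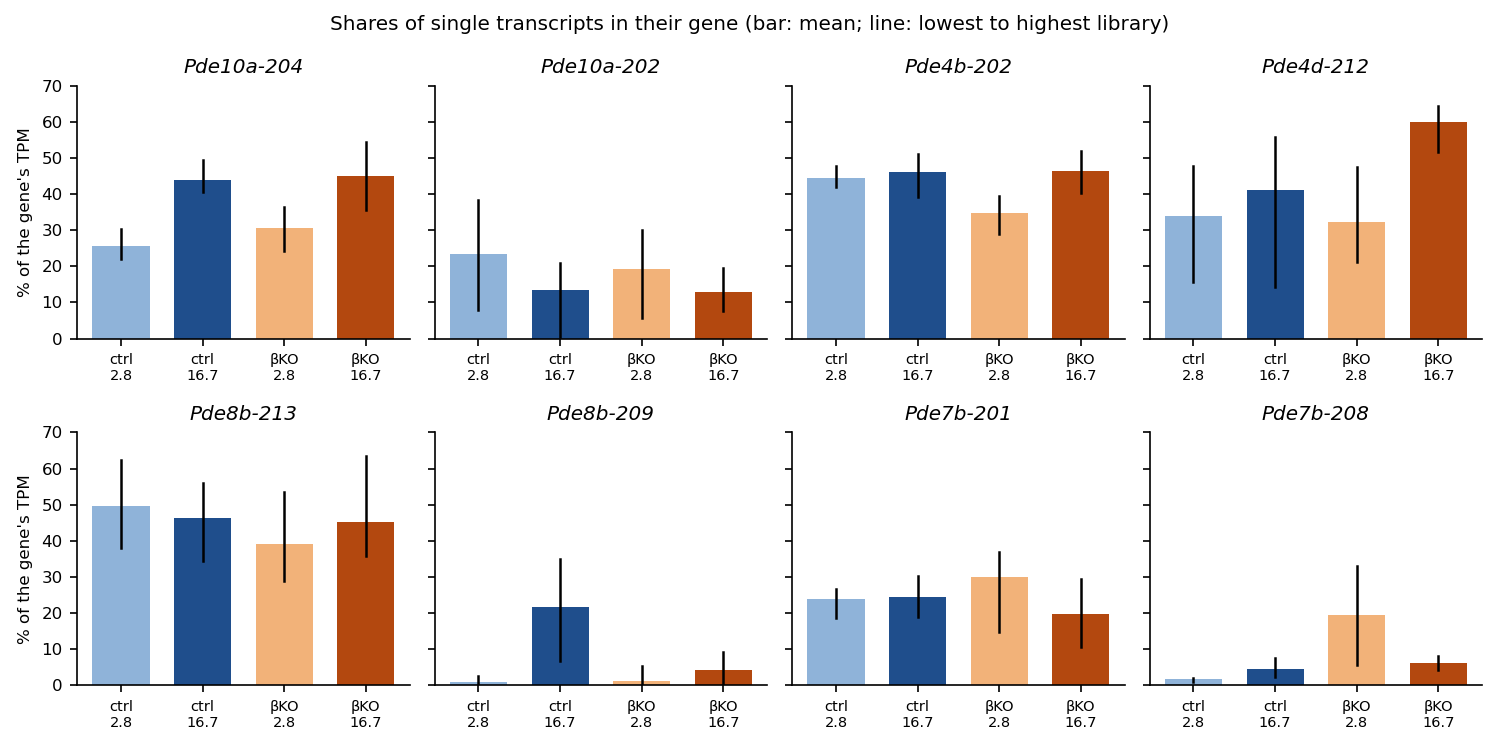
Percent of a gene's TPM assigned to 8 of its transcripts, by group (ctrl: control; βKO: Pcbp2βKO; glucose in mM); bars are means over the 3, 4, 5 and 5 libraries and lines run from the lowest to the highest library. Pde10a-204 is higher at 16.7 mM in both genotypes, Pde8b-209 is above 10% on average in control cells at 16.7 mM alone, and Pde7b-201 and Pde8b-213 overlap across all groups.

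With loss of Pcbp2, Pde7b-201 and Pde8b-213 were the only member transcripts called, at both glucose levels, where 0.391% of all transcripts were called at high glucose (0.0642% as higher, 0.327% as lower) and 0.504% at low glucose (0.0397% and 0.465%). Pde7b-201, a protein-coding transcript that runs over the whole gene, fell by 2.15 (SE 0.42, edgeR adjusted p = 0.0349) at high and fell by 2.88 (SE 0.45, adjusted p = 0.00486) at low glucose on the log2 scale, and at high glucose 7 of 9 libraries, left out in turn, ended the call (adjusted p = 0.0584 to 0.109), as did leaving out the 3 libraries that scored apart (0.166). Pde8b-213, a transcript with no defined coding sequence, fell by 2.09 (SE 0.30) and fell by 2.06 (SE 0.32). The shares of both in their genes overlapped in all 4 groups, as the bars of transcript shares show. Pde8b-211, the main protein-coding transcript, differed by −1.43 (SE 0.42, adjusted p = 0.249) and −1.36 (SE 0.45, adjusted p = 0.345). Reads shared between overlapping transcripts were divided by estimation, and that uncertainty is not in these tests.

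Over the 17 libraries, which share the glucose and genotype contrasts described above, Pde5a and Pde10a went together most closely (Pearson's r = 0.919 of log2 CPM), then Pde1c and Pde10a (0.899) and Pde7b and Pde8b (0.884). The lowest values were those of Pde1c and Pde3b (−0.737) and Pde3a and Pde7b (−0.704). Among 10014 genes with at least 5 CPM on average, the 3 most like Pde7b were Cish (0.973), Gdf3 (0.968) and Socs2 (0.962), those most like Pde8b were St14 (0.969), Gm38070 (0.967) and Neb (0.964), and those most like Pde3a were Runx1t1 (0.913), A1cf (0.900) and Tmem98 (0.895).

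Of 14 other phosphodiesterase subunits, all were tested. Glucose raised 2 in control cells, Pde1b (log2 1.88, SE 0.52) and Pde11a (4.60, SE 0.78), and these and Pde4a in Pcbp2βKO cells, where 13.8% and 23.8% of all genes were called, so that these counts are near the background. Pde1b, Pde11a and Pde4a averaged 3.75 CPM or less in every group, and Pde11a averaged 0.058 CPM in control cells at low glucose. Loss of Pcbp2 lowered 1 of the 14, Pde2a, a dual-specificity enzyme stimulated by cGMP, where 1.71% of all genes were called at high and 2.04% at low glucose. Pde2a measured 11.8, 15.1, 25.0 and 17.2 CPM in control and 0.322 to 0.694 CPM in the 5 Pcbp2βKO libraries at high glucose, and 8.02, 6.56 and 12.7 against 0.313 to 1.39 CPM at low glucose. The log2 fold change was −5.09 (SE 0.44, edgeR adjusted p = 2.14e-06) at high and −3.65 (SE 0.43, adjusted p = 5.08e-05) at low glucose. Per length the fall was smaller. Mean TPM was 2.73 in control and 0.516 in Pcbp2βKO cells at high glucose, and 2.35 and 0.740 at low glucose.

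Of 19 tested cAMP effectors (the subunits and inhibitors of protein kinase A, the Epac genes, Popeye-domain proteins and cyclic nucleotide-gated channels; 22 listed), loss of Pcbp2 raised none at either glucose level. Popdc3, a cAMP-binding membrane protein at 0.915 CPM or less on average in every group, was called lower at both (log2 −4.97, SE 0.96 at high and −4.00, SE 0.95 at low glucose). The shares of all genes called for loss of Pcbp2 were 1.71% at high glucose (0.29% as higher) and 2.04% at low glucose (0.255% as higher). Glucose in control cells raised Prkar1a, a regulatory subunit of protein kinase A (1.13, SE 0.23), Rapgef4, which encodes Epac2 (1.04, SE 0.23), and the inhibitor Pkib (0.90, SE 0.22), and lowered Prkar1b (−0.74, SE 0.19). The same 4 passed in Pcbp2βKO cells in the same directions, and there Hcn4 rose (1.64, SE 0.30) and Popdc2 fell (−4.77, SE 1.04) as well, both at low levels (1.62 CPM or less on average in every Pcbp2βKO group). Popdc2 varied widely between Pcbp2βKO libraries at low glucose, at 1.56 CPM with an SD of 2.78, above the mean itself. Of all genes, 13.8% and 23.8% were called in these comparisons.

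Of 13 tested genes of the CREB pathway (Icer was not analysed here), glucose raised 5 and lowered 2 in control cells and the same 7 in Pcbp2βKO cells, beside 13.8% and 23.8% of all genes. Those that rose were Fos (log2 4.82 in control cells, SE 0.61), Nr4a1 (5.40, SE 1.14), Nr4a2 (5.38, SE 0.82), Sik1 (2.73, SE 0.47) and Crem (2.49, SE 0.44), and those that fell were Creb1 (−0.60, SE 0.15) and Crtc2 (−0.65, SE 0.15). Loss of Pcbp2 moved none of the 13 past the threshold at either glucose level, where only 1.71% of all genes were called at high and 2.04% at low glucose. Crem, though not called, averaged 153 CPM (SD 76.0) in control and 76.8 CPM (SD 34.4) in Pcbp2βKO cells at high glucose. Its rise with glucose was 1.63 (SE 0.35) in Pcbp2βKO cells, and no gene of the list was called for the interaction. The median log2 fold change of the list was 0.36 for glucose in control cells, 0.02 for the genotype at high and 0.30 at low glucose, against 0.04, 0.01 and 0.03 over all genes.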

How the data were processed

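RNA from sorted β cells was sequenced as 150-nt read pairs after an ultra-low-input preparation. The authors pseudoaligned the reads to the GRCm39 transcriptome with kallisto (version not given in the sources used here). The deposited files hold, per transcript, estimated counts, TPM and the effective length, another quantity used here only for length-scaled counts. Totals were 47385513 to 82419400 estimated counts a library. No 2 libraries of a group agreed within sampling noise (29 pairs, chi-square per gene 32.2 or more).

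Gene sums of the estimated counts were rounded and fitted in 1 model of 4 groups over all 17 samples with edgeR 4.0.16 (R 4.3.3, filterByExpr, TMM, quasi-likelihood test). A prior count of 2 was used only for log2 CPM, which served for overlap of groups, the principal component and correlations. Calls required a Benjamini-Hochberg adjusted p below 0.05 with more than a 1.5-fold difference, and transcripts likewise. Shares of transcripts were compared by exact permutation tests. The scripts were tested on simulated data. Alternatives were DESeq2 1.42.0, scaling by total counts, no filter, limma 3.58.1 on log2(TPM + 1) and log2(TPM + 0.1), length-scaled counts, only the groups compared, a replicate block, leaving out 3 libraries that scored apart, and leaving out each library. The study's model had a batch factor whose levels were not given in the sources used here, so it was left out.

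Control samples with the same replicate number were correlated across glucose in their deviations from group means (0.199, 0.123 and 0.258, all over 0.1). In each other comparison at least 1 pair was at 0.0835 or less. The highest value, 0.354, was between the genotypes at high glucose (replicate 4). Samples with different numbers were not correlated and the labels state no pairing, so pairing was not shown. All 10 genes were named by symbol, list genes only where called, and transcripts from a mean share of 10%. The members and lists were chosen with earlier results of these data known. Of the genes, 8 share exon bases with a gene on the other strand (all but Pde4b and Pde7b), and the counting is not stated to use strand, so such reads cannot be told apart. The result of 1 listed gene is not reported here.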

Additional observations from a re-analysis of the deposited data

Results flagged for a closer look

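In 30 sets of libraries (each gene in each group of 4 or 5), 3 had a highest or lowest library far from the others, where chance gives about 1 in 20, or 1.5 sets. Pde10a measured 26.4 CPM in control replicate 4 at high glucose, against 52.2 to 57.9 CPM in the other 3 libraries. Pde8a measured 7.22 CPM in Pcbp2βKO replicate 5 at low glucose, against 11.2 to 11.9 CPM in the other 4. Pde4d measured 2.13 CPM in Pcbp2βKO replicate 3 at low glucose, against 1.52 to 1.65 CPM in the other 4.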

How the results depend on the processing

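For glucose in control cells the 5 genes called became 3 with total counts, 3 on log2(TPM + 1) and 3 on log2(TPM + 0.1), and 2 to 5 with 1 library left out (3, 2 and 3 without control replicate 1 or 2 at low or 3 at high glucose). In Pcbp2βKO cells 7 became 3, 3 and 4. The TPM scales split these as 2 higher and 1 lower in control cells, and as 1 and 2, and 2 and 2, in Pcbp2βKO cells. With loss of Pcbp2 at low glucose 2 became 1 on log2(TPM + 1) (2 on log2(TPM + 0.1), with Pde8b lost and Pde3a gained), and 1 to 3 with 1 library left out (1 without control replicate 3). Member transcripts called were 4 to 12 for glucose in control cells and 1 to 2 for loss of Pcbp2 at high glucose with 1 library left out, and 1 in the latter without the 3 libraries that scored apart, which were chosen on an axis that separates the glucose groups. With the replicate block the members called were 5, 3, 3, 6 and 0 (glucose in control cells, loss of Pcbp2 at high and low glucose, glucose in Pcbp2βKO cells, interaction), and Pde3a at low glucose passed (adjusted p = 0.0300) while Pde3b with glucose in Pcbp2βKO cells did not (−0.58).

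Directions turned for the log2 values below. For glucose the median of all genes shifted as well, to −0.35 in control and −0.47 in Pcbp2βKO cells with total counts. It was −0.24 and −0.33 on log2(TPM + 1), and −0.56 and −0.71 on log2(TPM + 0.1). With total counts, glucose in control cells gave −0.18 for Pde3a, −0.19 for Pde7b and −0.18 for Pde8a, and in Pcbp2βKO cells −0.23 for Pde3a and −0.043 for Pde4d. On log2(TPM + 1) and log2(TPM + 0.1), control cells gave Pde3a −0.024 and −0.18, Pde4b −0.33 and −0.37, Pde7b −0.43 and −0.58, and Pde8a −0.39 and −0.57. Pcbp2βKO cells gave Pde3a −0.22 and −0.61, Pde4b −0.16 and −0.17, Pde4d −0.21 and −0.40, and Pde5a −0.038 and −0.055. Loss of Pcbp2 at high glucose gave Pde3b −0.083 and −0.11 and Pde8a −0.042 and −0.073. Length-scaled counts gave Pde3b −0.033 and Pde4d 0.11 there, and Pde8a 0.0049 for glucose in Pcbp2βKO cells. Pde4d at high glucose was 0.00044 with no filter, 0.039 with the block and 0.24 without the 3 libraries. The block gave Pde5a 0.018 and Pde10a 0.015 at low glucose. With 1 library left out, glucose in control cells ranged from −0.10 to 0.55 for Pde3a and −0.014 to 0.54 for Pde7b, loss of Pcbp2 at high glucose from −0.14 to 0.14 for Pde3b and −0.15 to 0.15 for Pde4d, and glucose in Pcbp2βKO cells from −0.026 to 0.43 for Pde3a and −0.14 to 0.090 for Pde8a. The cause was not tested.

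Over all genes, 3153 called for glucose in control cells (1629 higher, 1524 lower) became 4837 with total counts (782 higher, 4055 lower), 6975 on log2(TPM + 1) (250 and 6725), 8902 on log2(TPM + 0.1) (442 and 8460), 4775 with the block and 4898 without the 3 libraries. With 1 library left out it ranged from 1382 to 4480 (1990 and 1382 without control replicate 1 and 2 at low glucose), loss of Pcbp2 at high glucose, 389 genes, from 213 to 652 (without control replicate 3 and 4), and at low glucose, 464 genes, from 242 to 492 (242 without control replicate 3), so the shares of all genes called move with them. Loss of Pcbp2 gave 726 at high and 823 at low glucose by DESeq2, and 190 and 283 on log2(TPM + 1), and at high glucose 238 with only the groups compared and 587 without the 3 libraries. Glucose in Pcbp2βKO cells gave 5431 (3056 higher, 2375 lower), 7851 with total counts (1482 and 6369), and 8831 (345 and 8486) and 12449 (656 and 11793) on log2(TPM + 1) and log2(TPM + 0.1). The interaction gave 32 by DESeq2, 15 with no filter, 13 with the block and 0 and 3 on the TPM scales.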

Other observations

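Of 12 tested genes of cGMP production and action (16 listed), glucose raised Gucy2c, the receptor for guanylin (log2 3.59, SE 0.57), and Nos3 (1.36, SE 0.41) and lowered Gucy2g (−2.86, SE 0.90) in control cells, and raised Gucy2c (3.89), Nos3 (1.99), Nos1 (1.51) and Prkg1 (1.011) in Pcbp2βKO cells, where 13.8% and 23.8% of all genes were called. Loss of Pcbp2 raised Prkg2 (2.27, SE 0.49) and lowered Gucy2g (−4.61, SE 0.90) at low glucose, where 2.04% of all genes were called. It moved none past the threshold at high glucose, where 1.71% of all genes were called. Gucy2c went from 10.1 ± 1.85 to 121 ± 62.2 CPM (SD, n = 3 and 4) in control cells. The other genes called here averaged 3.16 CPM or less in every group.

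Of 17 adenylyl cyclases and G protein α subunits, glucose raised Gnaz (log2 0.86, SE 0.18) and lowered Gnai2 (−1.08, SE 0.27) in control cells, and in Pcbp2βKO cells these 2 passed in the same directions with Adcy4 (2.45, SE 0.51). Adcy4 averaged 0.225 CPM or less in every group. Of all genes, 13.8% were called in control and 23.8% in Pcbp2βKO cells, so these counts lie at or below the background. Of 11 tested anchors of phosphodiesterases and protein kinase A (12 listed), glucose raised Akap6 (3.26, SE 0.56), Akap13 (1.26, SE 0.17) and Pde4dip (0.63, SE 0.15) in control cells, and Akap6 (2.67) and Akap13 (1.07) in Pcbp2βKO cells, the latter a smaller share than the 23.8% of all genes. Loss of Pcbp2 moved none of these 28 genes past the threshold at either glucose level, where only 1.71% of all genes were called at high and 2.04% at low glucose.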
